A study of Mus musculus with 5 samples.

Results

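The proteasome is the protease complex that degrades ubiquitin-tagged proteins, and its constitutive genes were followed here through a course of lipopolysaccharide (LPS) in mouse macrophages. Genes were taken by name: every symbol of the expression table that begins with Psma to Psmg and a number, leaving out Psmb8, Psmb9 and Psmb10, the interferon-inducible catalytic subunits. This gave 47 of the 13339 genes listed, namely 16 of the core (8 Psma, 8 Psmb), 21 of the cap (7 Psmc, 14 Psmd), 5 activators (Psme), the inhibitor gene Psmf1 and 4 assembly genes (Psmg). RNA sequencing had been done on bone marrow-derived macrophages, phagocytes grown for 5 days in M-CSF from the marrow of 8-week-old C57BL/6 mice and all labelled WT2. One library came from untreated cells (0 h) and 1 each from cells given 100 ng/ml LPS for 4, 8, 12 or 24 h, so every difference compares a pair of single libraries and no test was possible. The labels do not say how many animals gave the cells, and 1 protocol field names dendritic cells. No cells kept without LPS for 4 to 24 h were analysed here, so the length of LPS exposure and the time in culture cannot be told apart.

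In the complete proteasome a barrel-shaped core of stacked alpha rings (Psma products) and beta rings (Psmb products) holds the proteolytic sites on its inner face. A cap of ATPases (Psmc) and other subunits (Psmd) binds ubiquitin chains, removes them and unfolds the substrate, whereas the Psme products open the core in its place without needing ubiquitin. Dedicated chaperones, among them the Psmg products, put the rings together. In immune cells, interferons are known to swap the catalytic beta subunits for inducible ones and to raise Psme1 and Psme2, which alters the peptides that reach MHC class I.

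The sequences upstream of 2 of these genes, whose courses differed, are printed as single examples: Psmb5, a constitutive catalytic subunit, and Psmg1, an assembly chaperone. Neither stands for the other genes of its group. Each runs 5′ to 3′ over the 250 bases before the start in the RefSeq promoter table (GRCm38.p6). Capitals mark the match to TGACNNNGC, the core of the antioxidant response element, in Psmb5 and to TTCNNNGAA, the gamma-activated site, in Psmg1.
Psmb5, chr14:54617996-54618245, minus strand: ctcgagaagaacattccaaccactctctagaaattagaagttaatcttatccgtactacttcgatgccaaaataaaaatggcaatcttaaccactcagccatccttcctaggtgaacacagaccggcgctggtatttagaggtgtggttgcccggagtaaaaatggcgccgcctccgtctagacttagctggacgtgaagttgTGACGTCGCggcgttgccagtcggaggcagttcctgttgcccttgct
Psmg1, chr16:95990961-95991210, minus strand: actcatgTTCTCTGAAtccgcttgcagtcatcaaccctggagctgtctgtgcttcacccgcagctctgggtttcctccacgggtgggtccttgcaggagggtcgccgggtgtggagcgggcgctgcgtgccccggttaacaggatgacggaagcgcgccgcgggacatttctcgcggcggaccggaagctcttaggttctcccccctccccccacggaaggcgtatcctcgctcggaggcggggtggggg
The match lay 47 to 39 bases before the start in Psmb5 and 243 to 235 bases before it in Psmg1. Of the 47 genes 39 had such an entry. On either strand, TGACNNNGC was present in 5 of these 39 (12.8%; Psmb5, Psmb6, Psmc6, Psmd9 and Psmd12) and in 14.2% of 8001 expressed genes with an entry. The Psmb6 match, 9 to 1 bases before the tabled start, lay inside the gene's annotated span. TTCNNNGAA was present in 1 of 39 (2.56%, against 7.15%), and GAAA followed after any 2 bases by another GAAA, the core of the interferon-stimulated response element, in 3 of 39 (7.69%, against 3.66%; Psmb3, Psmd4 and Psmd9). CCAAT, the box bound by the factor NF-Y, was present in 14 of 39 (35.9%, against 40.4%). None of these 4 motifs was in the windows of Psme1, Psme2 or Psme4. These are matches of letters in a short window and say nothing of binding.

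Values are FPKM, which scale the fragments of a gene by its transcript length and by library size, so that levels of different genes can be compared within a library. Genes averaging 1 FPKM or more across the libraries were counted: 9795 of all genes and 44 of the 47. Differences are of log2(FPKM + 1), on which low genes show a smaller fold than they have, and counts of higher and lower genes use a 2-fold limit on that scale. Single folds are ratios of FPKM. The 3 genes under the filter were Psma8, the testis form of an alpha subunit (0.70 FPKM before LPS and 0.10 to 0.22 after it), Psmb11, the thymic form of the catalytic subunit Psmb5 (0.19 to 0.44 FPKM), and Psmc3ip (0.11 to 0.72 FPKM), which encodes a partner of Psmc3 known from meiotic recombination and is no subunit. Steps between low FPKM values placed the depth at 18800000 to 19150000 reads a library, and the 95% Poisson intervals given here rest on that estimate and cover counting error only. Their half-width was 4.83% of the value in the median case and at most 43.6% (Psmg1 at 4 h).

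All 7 macrophage markers were measured, with a summed level of 2052 to 3054 FPKM, of which Cd68, Csf1r, Adgre1 and Fcgr1 made up the largest part, while Lyz2 was at 19.1 to 37.5 FPKM. The 5 dendritic cell markers summed to 44.9 FPKM at 0 h and 5.94 at 24 h, mostly from Itgax, which macrophages also express, and Flt3, Zbtb46 and Xcr1 stayed at or below 0.64 FPKM. Of 6 lymphoid markers 4 were listed, with sums of at most 0.67 FPKM, 1 of 3 erythroid markers was listed, at 0.29 to 1.19 FPKM, and the 3 stromal markers summed to 1.42 to 3.10 FPKM. The 7 listed of 8 granulocyte markers summed to 339 FPKM before LPS and to 321, 254, 179.9 and 58.8 FPKM after 4, 8, 12 and 24 h. In the last library Mpo was at 0. Not all of them followed the sum: Ly6g was higher at each later time (0.12 FPKM before LPS and 3.71 at 24 h), and S100a8 was above its 0 h level of 117 FPKM at 8 h (144) and 12 h (125). Whether the trend of the sum has a part in the courses of the proteasome genes was not tested, and in bulk RNA fewer cells of a type and less RNA per cell cannot be told apart.

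At 4 h the groups separated. The 5 activator genes were above 0 h, by a median of 0.93 on the log2 scale, core genes had a median of -0.32 (14 genes), cap genes of -0.53 (20 genes) and assembly genes of -1.55 (4 genes). The median of all 9795 genes was -0.70. Of the 44 proteasome genes 5 (11.4%) stood 2-fold or more below 0 h, Psmc1 and the 4 Psmg genes, against 38.1% of all genes. Another 3 (6.82%), Psma6, Psme2 and Psme2b, were at least 2-fold higher, against 12.2%. The other 36 of 44 lay within 2-fold of their 0 h level, as did 4869 of the 9795 genes.

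The sign of the core and cap medians at 4 h depended on scaling. With both libraries centred on the median gene the medians were 0.38 for the core and 0.16 for the cap, and 9 of the 44 genes were at least 2-fold higher and 1 lower (all genes: 21.5% and 13.4%). Short transcripts had lower values at 4 h across the table: the shortest 10% of genes (371 to 1262 nt) had a median of -1.29 and the longest 10% of -0.06. The proteasome genes are short, with a median of 1490.5 nt against 3034 nt. With this trend by length removed, the core had a median of 0.89 and the cap of 0.40, and 14 of 44 genes were at least 2-fold higher and 0 lower (all genes: 19.8% and 12%). Under all 3 scalings activators were positive (1.63 centred, 1.73 with the length trend removed) and assembly genes negative (-0.86 and -0.31). The gap between the core and assembly medians was 1.23 as deposited and also after centring, and 1.20 once the trend by length was taken out.

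**Figure D1:**
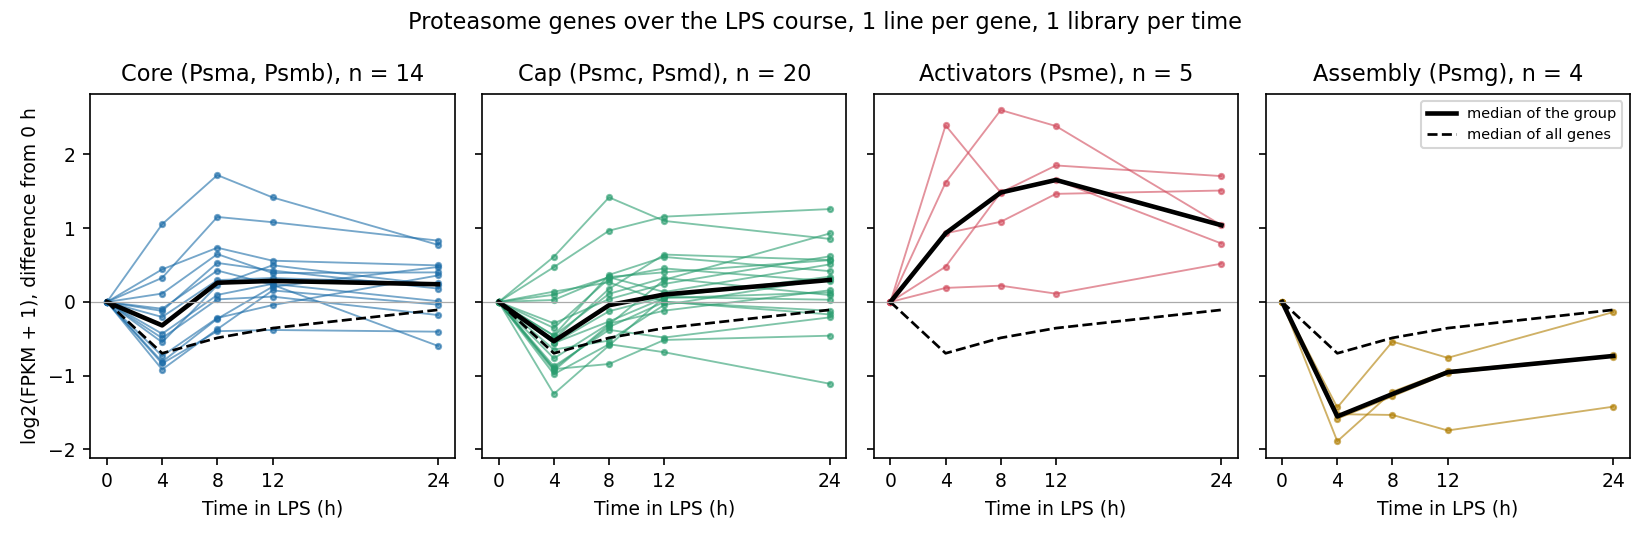
Difference of log2(FPKM + 1) from 0 h (vertical axis) against time in LPS in hours for each gene past the filter (thin lines with points), the median of its group (thick line) and the median of all 9795 genes (dashed). As deposited, the core and cap medians dip to -0.32 and -0.53 at 4 h (above 0 when centred) and return, the activators peak at 1.65 at 12 h, and the assembly genes stay below 0.

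After 4 h the core and cap genes were higher. From 4 h to 8 h the median difference of the 44 genes was 0.52, against 0.15 for all genes. Centring gave 0.37, and removal of the length trend 0.27. Against 0 h, the 8 h library had 7 genes (15.9%) at least 2-fold higher and 3 (6.82%) lower, where all genes gave 12% and 28.9%. Centred, the same library had 11 and 1 (all genes: 18% and 14.9%). Removal of the length trend gave 17 and 0 (17.8% and 13.3%). The 12 h library had 8 (18.2%) and 1 (2.27%), where all genes gave 12.3% and 21.5%. Here removal of the length trend gave 18 and 0 (16% and 10.4%). At 24 h 4 genes (9.09%) were higher, Psmd11, Psme2, Psme2b and Psme4, and 2 (4.55%) lower, Psmd8 and Psmg4, and all genes gave 11.3% and 14.5%. The share higher at 24 h was near that of all genes. Centring gave 5 and 2 (12.6% and 12.3%) and removing the length trend 9 and 0 (11.9% and 10.1%).

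At 24 h against 0 h the medians were 0.24 for the core, 0.30 for the cap, 1.04 for the activators and -0.73 for the assembly genes, and -0.11 for all genes. Centring on the median gene left these signs as they were. The median of the 4 assembly genes moved to -0.11 with the length trend removed, and Psmg3 alone was then above 0 (0.62). Between 4 h and 24 h the median was 0.55 for the proteasome genes and 0.49 for all genes, with 7 genes (15.9%) at least 2-fold higher and 0 lower, against 25% and 8.19% of all genes. These were Psma1, Psmb5, Psmc1, Psmd3, Psmd5, Psmg1 and Psmg3. Centred, 2 were higher (Psmc1, Psmd5) and 2 lower (Psme2, Psme2b), against 9.65% and 15.3%. Removal of the length trend left the same 4, against 9.52% and 15.1%. The core median was then -0.053 and -0.078, so the later gain of the core over 4 h did not exceed that of the median gene.

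**Figure D2:**
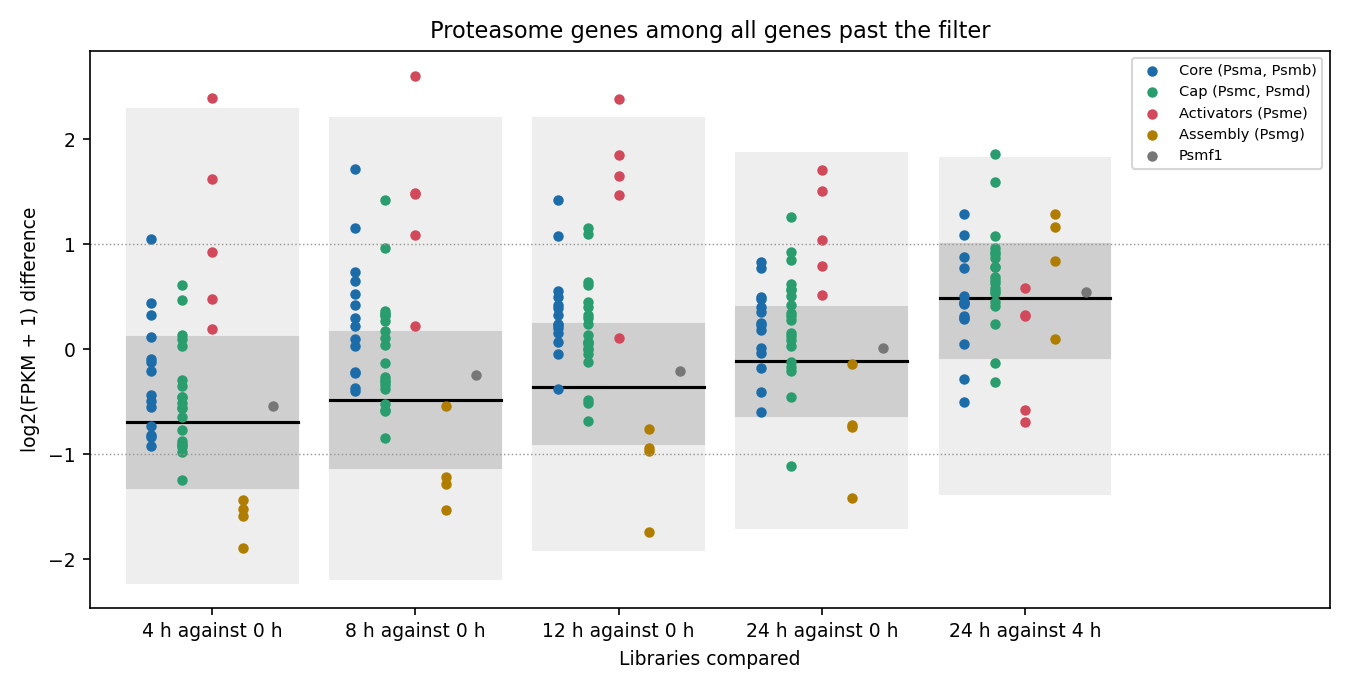
Difference of log2(FPKM + 1) (vertical axis) for each proteasome gene (points, coloured by group) in 5 pairs of libraries, over the range of all 9795 genes: the black line is the median, the dark box the middle 50% and the light box the middle 90%. Dotted lines mark 2-fold; at 4 h against 0 h the 4 assembly genes lie below -1, and 3 points lie above 1.

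By time of the extremes in the values as deposited, 27 of the 44 genes (61.4%) had their lowest value at 4 h, as had 46.1% of all genes. The highest value lay at 8 h in 9 genes (20.5%, against 6.77% of all genes), at 12 h in 11 (25%, against 7.58%), at 24 h in 14 (31.8%, against 24.5%) and at 0 h in 9 (20.5%, against 48.7%). In the core 6 of 14 genes peaked at 8 h and 5 at 12 h, whereas in the cap 9 of 20 peaked at 24 h. These times depended on scaling. Centred, Psma1, Psmb3 and Psmb5 were the only core genes still lowest at 4 h. Of the cap, Psmd2, Psmd7, Psmd11 and Psmd14 were then highest at 8 or 12 h and not at 24 h. As deposited and when centred, all 5 activators were lowest at 0 h, and all 4 assembly genes were highest there. With the length trend removed Psmg3 was at -0.12, 0.57, 0.21 and 0.62 after 4, 8, 12 and 24 h, so not highest at 0 h. Over the 5 libraries 22 of 44 genes stayed within 2-fold between their highest and lowest value (50%, against 33.3% of all genes), 13 of 20 in the cap and 7 of 14 in the core.

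The alpha ring genes did not keep a common course (gene positions here and later are of GRCm38.p6). Psma6 (gene 26443, chr12:55384222-55418459) stood at 84.5 FPKM before LPS and 176, 281, 227 and 145 FPKM after 4, 8, 12 and 24 h. It was above 0 h in all 4 stimulated libraries and differed by 1.05 at 4 h and 1.72 at 8 h on the log2 scale. Psma1 (gene 26440, chr7:114264550-114276116) stood at 70.7 FPKM before LPS and 42.1, 60.7, 68.6 and 91.0 FPKM after 4, 8, 12 and 24 h, lowest at 4 h and highest at 24 h. Psma5 (gene 26442, chr3:108256926-108279952) had 56.0 FPKM before LPS and 70.5, 126, 119.7 and 101 FPKM after 4, 8, 12 and 24 h, and its difference of 0.83 at 24 h was the highest of the alpha genes. Psma4 had 84.7, 77.8, 123, 114 and 96.2 FPKM over the same times and the lowest difference at 24 h (0.18). Psma2 (86.0 to 135 FPKM) and Psma3 (40.1 to 67.4) were lowest at 0 h and highest at 8 h, and Psma7 (49.0 to 102) was lowest at 4 h and highest at 12 h.

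Since the products of these genes sit at equal numbers in the ring, their levels per length were compared within each library. Psma6 was 1.18 times the median of the other 6 alpha genes at 0 h, and 2.81, 2.71, 2.11 and 1.55 times after 4, 8, 12 and 24 h. The highest alpha gene exceeded the lowest 2.15-fold at 0 h, 4.62-fold at 8 h and 2.55-fold at 24 h. Spread over the 14 core genes, as the SD of log2 FPKM across genes, was 0.54 before LPS and 0.66, 0.68, 0.55 and 0.40 after 4, 8, 12 and 24 h. By this SD core levels were farther apart at 4 and 8 h than at 0 or 24 h. By the highest over the lowest core gene they were not farther apart than at 0 h. That span was 4.63-fold at 0 h, 4.19-fold at 4 h, 4.62-fold at 8 h and 2.75-fold at 24 h. Copies limit these values: processed pseudogenes at least 90% identical over at least 300 nt were found for Psma2, Psma3, Psma4 and Psma5, and 0 for Psma6 and Psma1.

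The genes of the beta subunits that stay without an active site were all lower at 4 h than at 0 h as deposited, while centring put 4 of all 7 beta genes above 0 h and removal of the length trend all 7. Psmb3 (gene 26446, chr11:97703434-97713500) stood at 81.7 FPKM before LPS and 42.8, 63.0, 91.2 and 79.7 FPKM after 4, 8, 12 and 24 h, with the lowest 4 h difference of the core (-0.92; -0.22 centred, but 0.42 with the length trend removed). Psmb1 (gene 19170, chr17:15475721-15498276) stood at 109 FPKM before LPS and 60.8, 82.7, 83.7 and 82.3 FPKM after 4, 8, 12 and 24 h. As deposited it did not regain its 0 h level (-0.40 at 24 h). Centred, it was at 0.09 at 8 h and -0.30 at 24 h. With the length trend removed it was at 0.14, 0.26, 0.18 and -0.11 after 4, 8, 12 and 24 h. Psmb2 (gene 26445, chr4:126677637-126709715) had 70.0 FPKM before LPS and 51.6, 74.9, 83.2 and 70.5 FPKM after 4, 8, 12 and 24 h, with 0 h and 24 h close together. Psmb4 ranged from 92.8 FPKM at 4 h to 138 at 12 h. Reads of Psmb3 are uncertain, since 7 pseudogenes match it over 518 to 629 nt. As a set the beta genes had a median of -0.49 at 4 h and the alpha genes of 0.11, a gap of 0.60, also after centring, that was 0.37 with the length trend removed. At 24 h the gap was 0.44, and 0.044 with that trend removed.

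**Figure D3:**
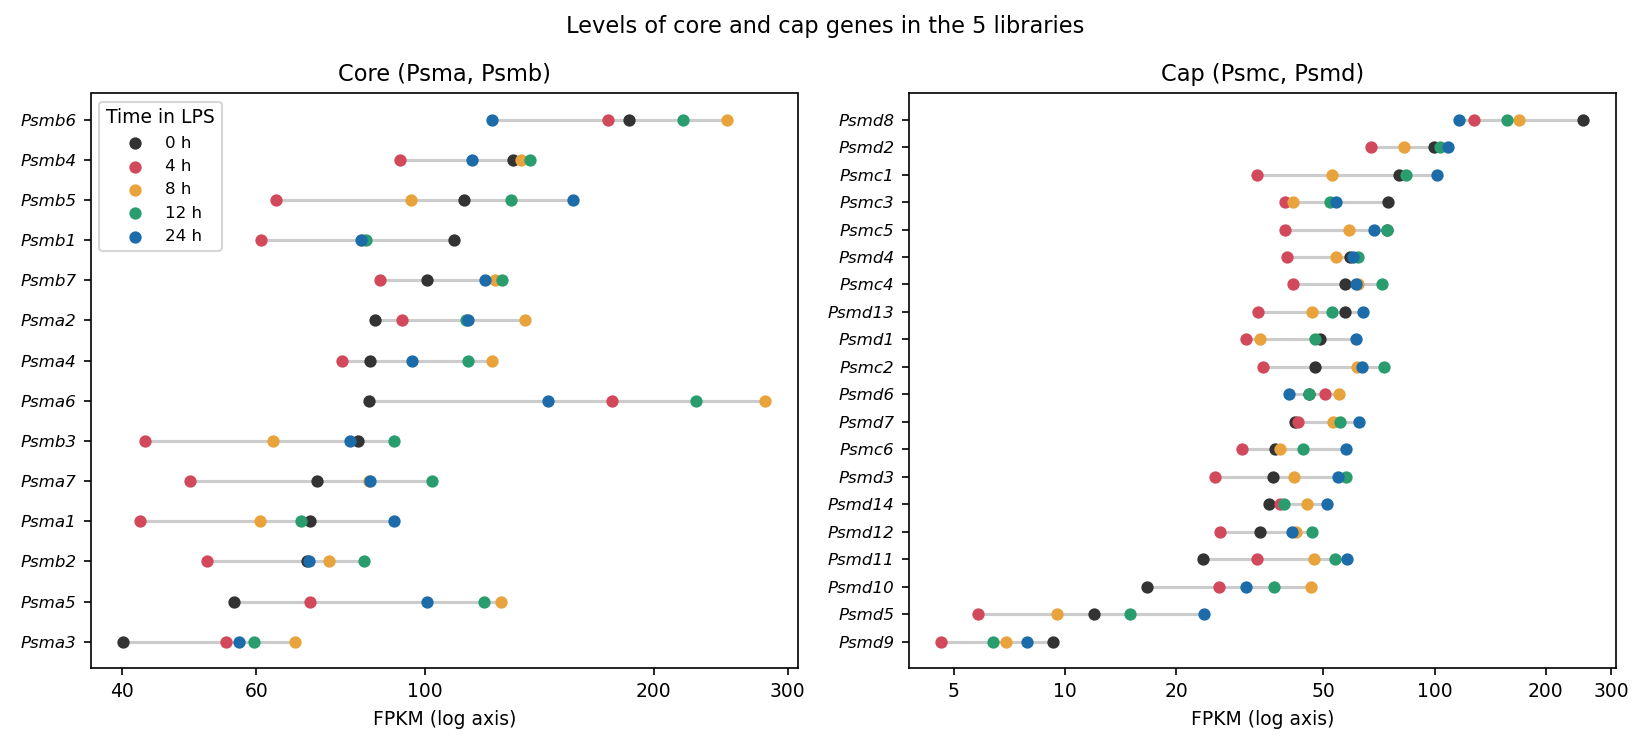
FPKM on a log axis (horizontal) of the 14 core and 20 cap genes past the filter, with 1 point per library coloured by time in LPS and genes ordered by their 0 h level. The 4 h point is the leftmost in 9 core and 14 cap genes, and the 0 h point in Psma2, Psma3, Psma5, Psma6, Psmd7, Psmd10, Psmd11 and Psmd14.

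The 3 constitutive catalytic genes had different courses. Psmb5, the chymotrypsin-like site (gene 19173, chr14:54614120-54617995), stood at 113 FPKM before LPS and 63.7, 96.0, 130.0 and 157 FPKM after 4, 8, 12 and 24 h. It was 1.77-fold lower at 4 h than at 0 h (-0.81; -0.12 centred, but 0.50 with the length trend removed) and 2.46-fold higher at 24 h than at 4 h. Psmb6, the caspase-like site (gene 19175, chr11:70525324-70527858), stood at 186 FPKM before LPS and 174, 249.8, 218 and 122 FPKM after 4, 8, 12 and 24 h, highest at 8 h and lowest at 24 h, with a 24 h difference of -0.60 (-0.49 centred, but 0.30 with the length trend removed). Psmb7, the trypsin-like site (gene 19177, chr2:38588046-38643952), stood at 101 FPKM before LPS and 87.3, 124, 126 and 120.0 FPKM after 4, 8, 12 and 24 h, with a 1.45-fold range over the course. From 8 h on, Psmb5 was higher and Psmb6 lower in each later library. Psmb5 has pseudogenes with 98.9% and 92.0% identity over 796 and 810 nt, and Psmb6 has 1 with 92.1% over 718 nt.

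Each of these genes was set beside the inducible gene whose product takes its place. Within a library this ratio does not depend on a factor applied to the whole library. It can depend on the trend by length, since the inducible transcripts are longer. Psmb8 has 1628 nt and Psmb5 899 nt, Psmb9 1352 nt and Psmb6 798 nt, and Psmb10 1311 nt and Psmb7 1160 nt. The ratios were not corrected for that trend, and its part in them was not tested. Psmb8 was at 0.92 times Psmb5 before LPS and 3.27, 4.49, 3.65 and 1.48 times after 4, 8, 12 and 24 h. Psmb10 over Psmb7 had the same shape, with 0.72 before LPS and 1.83, 2.69, 2.37 and 1.01 after it. Psmb9 was below Psmb6 in all 5 libraries, with ratios of 0.20, 0.55, 0.63, 0.61 and 0.75 in order of time.

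The inducible genes themselves stood at 104, 209, 430.5, 475 and 232 FPKM (Psmb8), 37.0, 95.6, 156, 134 and 91.4 FPKM (Psmb9) and 72.2, 159.7, 333, 299.9 and 121 FPKM (Psmb10) in order of time. As a share of both transcripts, Psmb8 made up 48.0% at 0 h, 81.8% at 8 h and 59.6% at 24 h. Between 12 h and 24 h Psmb8 was lower (475 and 232 FPKM) and Psmb5 higher (130.0 and 157 FPKM). For Psmb9 the ratio was highest at 24 h although Psmb9 was below its 8 h and 12 h values, since Psmb6 differed by more (218 FPKM at 12 h and 122 at 24 h).

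**Figure D4:**
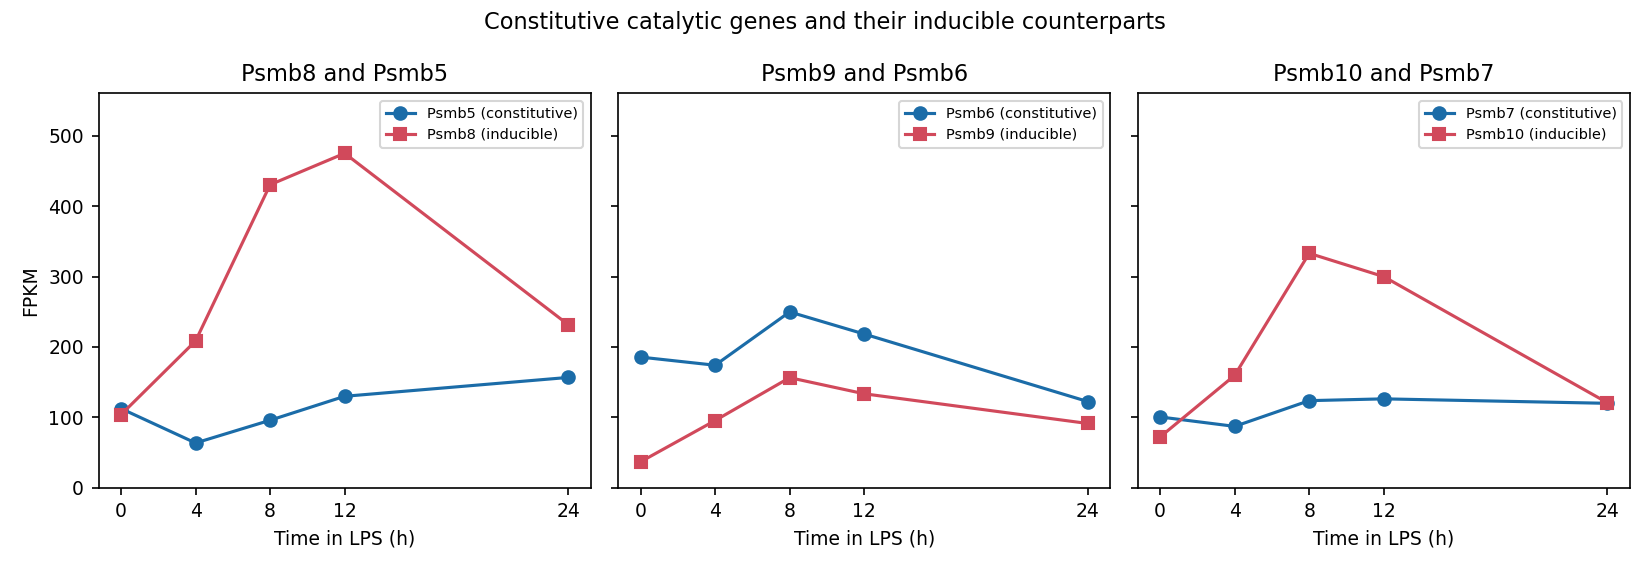
FPKM (vertical axis, from 0) against time in LPS for each constitutive catalytic gene (circles) and its inducible counterpart (squares), 1 library per point. Psmb8 and Psmb10 are above Psmb5 and Psmb7 from 4 h, and Psmb9 stays below Psmb6.

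In the ATPase ring of the cap, which unfolds substrates and opens the core, all 6 genes were lower at 4 h than at 0 h as deposited, 3 were when centred and 1, Psmc1, with the length trend removed. Psmc1 (gene 19179, chr12:100110202-100123364) stood at 80.0 FPKM before LPS and 33.2, 52.8, 83.8 and 102 FPKM after 4, 8, 12 and 24 h. On the scale of log2(FPKM + 1) it was the single core or cap gene at least 2-fold lower at 4 h as deposited. Its difference was -1.25, or -0.55 centred and -0.22 with the length trend removed. As ratios of FPKM, Psmd5 (2.06-fold) and Psmd9 (2.01-fold) of the cap also passed 2-fold. Psmc1 was 3.07-fold higher at 24 h than at 4 h. Psmc3 (gene 19182, chr2:91054016-91059438) stood at 74.8 FPKM before LPS and 39.3, 41.3, 52.0 and 54.2 FPKM after 4, 8, 12 and 24 h. As deposited and when centred, Psmc3 was below 0 h in every stimulated library. With the length trend removed it was at 0.089, -0.19, 0.067 and -0.15 over the same times. Psmc6 (gene 67089, chr14:45329823-45349074) had 37.1 FPKM before LPS and 30.1, 38.1, 44.1 and 57.5 FPKM after 4, 8, 12 and 24 h, the highest 24 h difference of the ring (0.62). Psmc2 (34.4 to 73.0 FPKM), Psmc4 (41.5 to 72.1) and Psmc5 (39.5 to 74.6) were lowest at 4 h. At 4 h the 6 ATPase genes lay closer together than in any other library, from 30.1 to 41.5 FPKM, a 1.38-fold span against 2.16-fold at 0 h. Processed pseudogenes match Psmc1, 1 of them with 95.6% identity over 1306 nt.

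Among the non-ATPase cap genes, Psmd11 was above and Psmd8 below 0 h in every stimulated library as deposited and when centred. Psmd7, Psmd10 and Psmd14 were likewise above 0 h in each of them under both scalings. With the length trend removed Psmd8 was at -0.039, 0.029 and -0.21 after 4, 8 and 12 h. Psmd11, a lid subunit that clamps the cap to the core (gene 69077, chr11:80428615-80473248), stood at 23.6 FPKM before LPS and 33.1, 47.1, 53.9 and 57.9 FPKM after 4, 8, 12 and 24 h, higher in each later library as deposited and 2.45-fold above 0 h at 24 h. Its step from 12 h to 24 h was 0.10 as deposited, -0.12 centred and -0.11 with the length trend removed. Psmd8, also of the lid (gene 57296, chr7:29174187-29180673), stood at 253 FPKM before LPS and 128, 169.6, 157 and 117 FPKM after 4, 8, 12 and 24 h. It was the highest cap gene in all 5 libraries, at 6.90 times the median of the other 13 Psmd genes at 0 h and 2.13 times at 24 h. Its 24 h difference of -1.11 (-0.84 with the length trend removed) was at percentile 12.2 among all genes, and that of Psmd11 (1.26) at percentile 91.3. Other transcripts match Psmd11 (97.9% identity over 1501 nt and 98.0% over 1269 nt), which leaves its reads uncertain.

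The 9 other Psmd genes without a chaperone role lay within 2-fold of 0 h in every stimulated library as deposited. Psmd1 (30.9 to 61.3 FPKM) and Psmd2 (67.4 to 109), the large scaffold subunits, were lowest at 4 h and highest at 24 h. Psmd4 (39.8 to 61.9 FPKM), a ubiquitin receptor, was also lowest at 4 h. Psmd14 (35.7 to 51.2), the deubiquitinase of the lid, and its partner Psmd7 (41.9 to 62.5) had no dip at 4 h as deposited, with differences of 0.098 and 0.027. Of the other lid genes, Psmd3 (25.5 to 57.7), Psmd12 (26.2 to 46.6) and Psmd13 (33.3 to 64.0) were lowest at 4 h, and Psmd6 (40.5 to 55.1) was highest at 8 h and lowest at 24 h. These extremes are of the values as deposited. Centred, the 4 h differences were 0.050 (Psmd1), 0.14 (Psmd2), 0.14 (Psmd4), 0.19 (Psmd3), 0.34 (Psmd12) and -0.069 (Psmd13). Psmd14 was then at 0.79 and Psmd7 at 0.72. With the length trend removed all of these genes were above 0 h at 4 h. Psmd2 has a transcribed pseudogene of 96.4% identity over 2726 nt.

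The chaperones of the ATPase base, which leave before the cap is complete, differed from each other. Psmd10, also known as gankyrin (gene 53380, chrX:140948425-140956711), stood at 16.7 FPKM before LPS and 26.1, 46.3, 36.9 and 31.0 FPKM after 4, 8, 12 and 24 h, above 0 h throughout, with the highest 4 h difference of the cap (0.61). Psmd5 (gene 66998, chr2:34852087-34870965) had 12.0 FPKM before LPS and 5.82, 9.51, 15.0 and 23.8 FPKM after 4, 8, 12 and 24 h. It was lowest at 4 h and 4.08-fold higher at 24 h, the largest 4 h to 24 h difference of the 44 genes (1.86). Psmd9 (gene 67151, chr5:123228190-123250126) had 9.31 FPKM before LPS and 4.63, 6.93, 6.38 and 7.92 FPKM after 4, 8, 12 and 24 h. As deposited Psmd9 was highest at 0 h, but its 8 h difference was 0.11 centred and 0.078 with the length trend removed. Psmd5 and Psmd9 are named beyond the naming rule, after their values were seen.

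From 4 h on, an activator gene had the highest level and the highest difference from 0 h of the set. Psme1 and Psme2 encode the subunits of the cytosolic cap called PA28 and lie beside each other (gene 19186, chr14:55578494-55581527; gene 19188, chr14:55587440-55591101), less than a megabase from Psmb5 and Psmb11 on the same chromosome. Psme1 stood at 165 FPKM before LPS and 230.0, 463, 521 and 286 FPKM after 4, 8, 12 and 24 h. Psme2 stood at 147 FPKM before LPS and 453, 896, 771 and 303 FPKM after 4, 8, 12 and 24 h. Both were above 0 h in every stimulated library; Psme2 was 3.09-fold higher at 4 h and 6.11-fold at 8 h, and Psme1 1.40-fold and 2.81-fold. The ratio of Psme2 to Psme1 was 0.89 before LPS and 1.97, 1.94, 1.48 and 1.06 after 4, 8, 12 and 24 h, so the pair was near equal at both ends of the course and unequal between.

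Psme2b (gene 621823, chr11:48945345-48946410) is a near-copy of Psme2 with 99.4% identity over 794 nt. It stood at 7.91 FPKM before LPS and 45.9, 23.9, 31.1 and 28.1 FPKM after 4, 8, 12 and 24 h, from 2.67% of Psme2 at 8 h to 10.1% at 4 h. Reads of such copies cannot be assigned with certainty, which leaves the values of Psme2b uncertain and limits those of Psme2 as well. Processed pseudogenes also match Psme2 (90.43% identity over 721 nt) and Psme1 (90.27% over 750 nt and 92.65% over 422 nt). Without Psme2b and Psmc3ip the activator median was 0.70 at 4 h and 0.92 at 24 h, against 0.93 and 1.04 with it.

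Psme3 and Psme4 were lower than the PA28 pair throughout. Psme4, which encodes the large activator PA200 (gene 103554, chr11:30771775-30881150), stood at 13.3 FPKM before LPS and 26.3, 29.5, 38.6 and 39.9 FPKM after 4, 8, 12 and 24 h, with 95% counting intervals of 12.7 to 14.0 FPKM before LPS and 38.8 to 41.0 FPKM in the 24 h library. As deposited it was higher in each later library, 1.97-fold above 0 h at 4 h and 2.99-fold at 24 h. Centred, its difference was highest at 12 h (1.82, and 1.62 at 24 h), the time at which Psme1 was also highest. Its transcript is the longest of the set (6491 nt), and its differences were 0.97 at 4 h, 1.40 at 12 h and 1.18 at 24 h once the trend by length was taken out. Psme3, the nuclear relative of Psme1 and Psme2 (gene 19192, chr11:101316213-101323537), stood at 22.4 FPKM before LPS and 25.7, 26.2, 24.3 and 32.5 FPKM after 4, 8, 12 and 24 h, with a 1.45-fold range. Set against the core, Psme1 and Psme2 together were 3.68 times the median core gene before LPS and 10.2, 12.4, 11.4 and 5.99 times after 4, 8, 12 and 24 h. Psmf1, which encodes an inhibitor of the core named PI31 (gene 228769, chr2:151716062-151744199), stood at 8.59 FPKM before LPS and 5.62, 7.08, 7.30 and 8.69 FPKM after 4, 8, 12 and 24 h, a difference of 0.015 at 24 h. Centred, its differences were 0.16, 0.24, 0.15 and 0.12 over the same times. With the length trend removed they were -0.075, 0.059, -0.011 and -0.017.

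**Figure D5:**
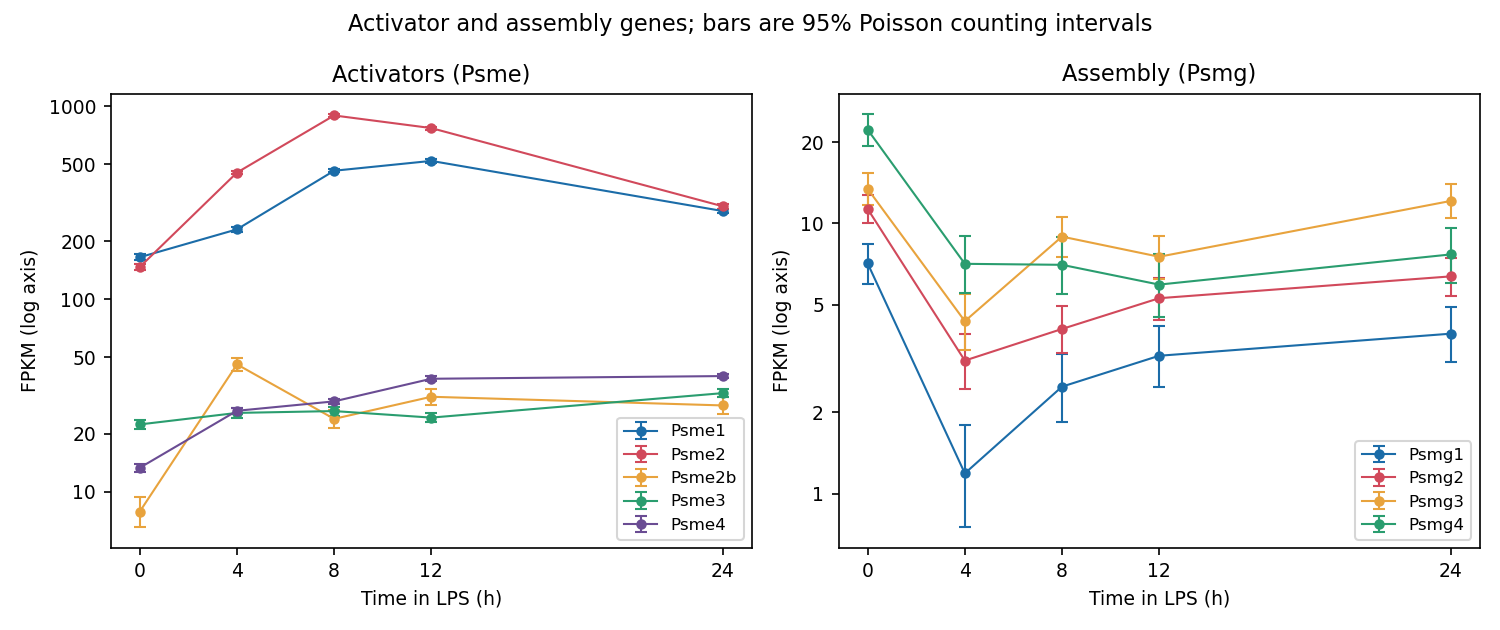
FPKM on a log axis against time in LPS for the 5 activator genes (left) and the 4 assembly genes (right), 1 library per point, with 95% Poisson counting intervals from the estimated depth. Psme1 is highest at 12 h with 521 FPKM, Psme2 at 8 h with 896 FPKM, and the assembly genes are highest at 0 h.

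The assembly chaperones were lower than before LPS at all later times as deposited and when centred. Psmg1 and Psmg2 form one dimer that builds the alpha ring, and Psmg3 and Psmg4 form another. Psmg1 (gene 56088, chr16:95979933-95990960) stood at 7.11 FPKM before LPS and 1.19, 2.49, 3.24 and 3.91 FPKM after 4, 8, 12 and 24 h, with counting intervals of 5.97 to 8.41 FPKM at 0 h, 0.75 to 1.79 at 4 h and 3.07 to 4.90 at 24 h. Psmg2 (gene 107047) stood at 11.3 FPKM before LPS and 3.11, 4.07, 5.29 and 6.37 FPKM after 4, 8, 12 and 24 h. In both genes, as deposited, the 4 h library was lowest and each later one higher, without regaining the 0 h level. Centred, the step of Psmg1 from 12 h to 24 h was -0.0085. With the length trend removed Psmg1 was close to its 0 h level late, at -0.025 at 12 h and -0.060 at 24 h. Psmg2 was then at -0.22 and -0.16. The interval of Psmg2 at 24 h, 5.40 to 7.47 FPKM, lay below its 0 h value.

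In the second dimer the members parted. Psmg3 (gene 66506, chr5:139823613-139826894) stood at 13.4 FPKM before LPS and 4.35, 8.94, 7.53 and 12.1 FPKM after 4, 8, 12 and 24 h, and its intervals at 0 h (11.7 to 15.3 FPKM) and 24 h (10.5 to 13.9) overlapped. Psmg4 (gene 69666, chr13:34162964-34178172) stood at 22.2 FPKM before LPS and 7.09, 7.03, 5.94 and 7.68 FPKM after 4, 8, 12 and 24 h, with intervals of 19.4 to 25.4 FPKM before LPS and 6.04 to 9.62 FPKM in the 24 h library, and did not regain its 0 h level. At 4 h the 4 genes were at percentiles 9.30 (Psmg1), 16.3 (Psmg2), 21.2 (Psmg3) and 18.2 (Psmg4) of all genes by their difference from 0 h. With the length trend removed these differences were -0.62, -0.45, -0.12 and -0.17, all within 2-fold. The summed assembly genes were 4.21% of the summed core genes before LPS and 1.38%, 1.32%, 1.31% and 2.09% after 4, 8, 12 and 24 h.

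Other genes that serve the proteasome without carrying a Psm symbol were taken from a list of 29 symbols, of which 26 were measured. At 4 h 0 of them were at least 2-fold higher (against 12.2% of all genes) and 7 lower (26.9%, against 38.1%), with a median of -0.61. At 24 h Ddi2 alone was higher (3.85%, against 11.3%) and 3 were lower (11.5%, against 14.5%), Ubqln2 and Rps27a among them, with a median of 0.23. Pomp, the chaperone that matures the core, stood at 196 FPKM before LPS and 119, 177, 181 and 170.3 FPKM after 4, 8, 12 and 24 h, with a 4 h difference of -0.71, near the median gene. Nfe2l1, the factor known to induce proteasome genes when proteasome activity is short, stood at 40.3 FPKM before LPS and 40.6, 44.3, 55.0 and 61.2 FPKM after 4, 8, 12 and 24 h. Ddi2, the protease that activates its product, had 4.80, 1.87, 4.81, 9.69 and 11.3 FPKM in order of time.

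Zfand2a, which encodes a proteasome-bound protein induced by arsenite, had the lowest difference of that list at 4 h (39.4, 5.06, 15.3, 36.5 and 35.0 FPKM in order of time), followed by the shuttle factor gene Ubqln2 (24.9, 7.25, 4.95, 6.40 and 11.3 FPKM). Fbxo7, which encodes an F-box protein, was among those above 0 h at 4 h (12.6, 18.2, 22.0, 17.4 and 12.9 FPKM). The lowest difference at 24 h was that of Rps27a, a ribosomal protein gene with 812, 288, 277, 238 and 148 FPKM, whose copies may share its reads.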

How the data were processed

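Per the file headers, the authors deposited FPKM, with 2 decimals and 1 column for each of the 5 libraries. Per the submitters' processing notes Bowtie2, RSEM and GRCm38 were named; for versions, annotation and filters nothing was stated there. RSEM divides reads of similar copies by estimate, and FPKM depend on what other genes take up. Differences were taken on log2(FPKM + 1) for genes with a mean of at least 1 FPKM. There was 1 library per time, hence no test. Lengths were the longest protein-coding transcript in GENCODE M21 (99.6% of filtered genes), and the length trend was a running median over 501 genes. Copies were found with megablast. Coordinates and promoters came from RefSeq GRCm38.p6.

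Depth was estimated from genes with 1 transcript: 56.8% to 66.7% of 100 to 111 low values per library were whole multiples of 1 read, against 25.5% to 26.5% by chance. The step was chosen for the best match, so this is an estimate, and whole reads were not recovered. The code that computes differences and counts was tested on simulated data with known changes, which checks the code and not the calls. Python 3.11.15, pandas 2.3.3 and scipy 1.17.1 were used.

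All genes of the set are named. Values in all libraries are given for Psme, Psmf and Psmg genes, Psmb5, Psmb6 and Psmb7, and the highest and lowest differences at 4 h and 24 h in each other family. Of the other list they are given for Pomp, Nfe2l1 and some, not all, of the genes with the highest and lowest differences. Results for some genes of that list are not reported here. Members and lists were chosen with earlier results of these data known.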

Additional observations from a re-analysis of the deposited data

How the results depend on the processing

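No paired analysis was possible because each time point has 1 library. The cause of each shift was not tested. Given 4 h against 0 h first and 24 h against 0 h second, medians centred on the median gene were 0.22 and 0.37 (all members), 0.38 and 0.35 (core), 0.16 and 0.41 (cap), 1.63 and 1.15 (activators), -0.86 and -0.62 (assembly). With the length trend removed they were 0.58 and 0.68, 0.89 and 0.84, 0.40 and 0.53, 1.73 and 1.44, -0.31 and -0.11. Rescaling to TPM gave at 4 h -0.22 (all), -0.065 (core), -0.28 (cap), 1.21 (activators) and -1.41 (assembly). For 24 h against 4 h the median of all members was 0.061 centred, 0.41 in TPM and 0.040 with the length trend removed. A pseudocount of 5 gave activators 0.77 at 4 h and assembly genes -0.99 and -0.48, and a pseudocount of 0.1 gave assembly genes -1.73 and -0.83. Without Psmc3ip and Psme2b the activators had 0.70 and 0.92. Genes at least 2-fold higher at 4 h were 9 centred and 14 with the length trend removed. Those lower were 1 centred, 0 with the length trend removed, 3 with a pseudocount of 5 and 1 among genes of at least 10 FPKM, where fewer genes were tested. At 24 h 9 were higher and 0 lower with the length trend removed, and 1 lower among genes of at least 10 FPKM. The log2 ratio of Psmb9 to Psmb6 at 0 h was -2.18 with a pseudocount of 5, against -2.33. No assembly gene averaged 10 FPKM, so that filter gave no value for the group. Dropping the filter changed no count or median by these limits. Counting depth limits Psmg1 at 4 h most, with an estimated 22.8 reads.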
